A study of Rattus norvegicus with 6 samples.

Results

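The genes described here were 102 genes, measured by 110 probes, that were higher in the heart primordium after heartbeat initiation. Their names lie outside 19 name families, among them families of contraction and ion transport. A probe was selected if its log2 signal, less the 75th percentile of its array, was above background on all 3 post-heartbeat arrays, was higher on every post-heartbeat array than on every pre-heartbeat array, and had a mean difference of 1 or more, which is a doubling. Probes without a gene symbol were left out, as were those whose gene name began with any of 19 prefixes, namely Myl, Myh, Myo, Mybp, Tnn, Act, Tpm, Atp, Cac, Casq, Kcn, Hcn, Npp, Hb, Slc, Cox, Eno, Trim and Pln. The array held 19973 probes for 16561 genes with a symbol, and 13062 of these probes, for 10930 genes, were above background on all 3 post-heartbeat arrays. The same selection within the 19 prefixes gave 35 genes, measured by 39 probes. The name filter did not sort genes by function. Among the 102 genes were the chloride channel gene Clcn2 and the filament and muscle protein genes Des, Lmod2, Cnn1 and Tagln.

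All 6 samples were heart primordia of the strain labelled Wister rat, taken on embryonic day 10, with no treatment and no genetic change. They were staged by the outline of their middle part, flat in the 3 samples from before the heartbeat and raised in the 3 from after it, with 1 array of 1 color for each sample. The study asked how gene expression and metabolism differ when the heart starts to beat. The labels call the samples biological replicates, and whether a sample was 1 primordium or a pool was not given in the sources used here.

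The 6 arrays had a 75th percentile between 1143 and 1694 intensity units and between 39028 and 41041 of 58717 spots well above background. Spots flagged as outliers, 324 to 545 an array, were left out of both. The first slide carried pre-heartbeat replicate 1 together with replicates 1 and 2 of the post-heartbeat group, and the second slide carried the other three arrays. The slides were scanned separately, so differences are also given within each slide. The groups were split unequally between the slides, so a difference over all 6 arrays can also hold part of a difference between slides. Of 46 transcription factors and co-factors of the heart, 40 were tested, which means that they were above background on all 3 arrays of either group. In tissue RNA, fewer cells of a type and less RNA in each cell cannot be told apart.

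Cardiac muscle cells acquire their apparatus in steps. Filament proteins are assembled into sarcomeres by chaperones and ubiquitin ligases, intermediate filaments tie the sarcomeres to the membrane, and caveolae and junctional membranes bring channels close to the calcium store. Beating also draws on enzymes that recycle adenine nucleotides, and the early heart makes catecholamines before it has nerves. Secreted signals such as Nodal antagonists, Wnt ligands and semaphorins shape the heart tube during the same period.

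The values that chose these genes are given as a description, without a test. Levels are on the log2 scale and relative to the 75th percentile, as above, and are listed in the order of replicates 1, 2 and 3, and a level of a probe is not compared with that of another probe. Differences are post-heartbeat minus pre-heartbeat means on the log2 scale. Over the 110 probes, the difference had a median of 1.26, where the median over all 19299 tested probes was -0.033. A difference of 2 or more was found for 7 probes, a difference from 1.5 up to 2 for 23 probes and a smaller one for 80 probes. Over all tested probes, 5.38% had every post-heartbeat array above every pre-heartbeat array, and 0.845% also had a difference of 1 or more.

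Srpk3, a serine-arginine protein kinase of striated muscle, was at -5.01, -6.14 and -6.88 in the pre-heartbeat group and -3.91, -3.16 and -2.89 in the post-heartbeat group. The means were -6.01 ± 0.94 and -3.32 ± 0.53 (SD, n = 3), a difference of 2.69, but 1 of the 3 pre-heartbeat arrays was above background, so the size of this difference rests on signals near background. It was 1.47 on the first slide and 3.63 on the second, and 1.05 after another background correction (normexp, with a constant added to every signal). Rgc32, a regulator of the cell cycle now named Rgcc, had 2 probes among the 110, and the larger difference came from signals of -5.66, -8.01 and -7.33 in the pre-heartbeat group and -4.24, -3.91 and -4.83 in the post-heartbeat group. The 2 probes of Rgc32 overlap in position and differed by 2.67 and 2.05, with 1 pre-heartbeat array above background for each. In both, pre-heartbeat replicate 2 was the lowest array. That no pre-heartbeat array reached any post-heartbeat array was required by the selection.

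Cav3 encodes the caveolin of muscle, the coat protein of the membrane pits called caveolae. Its signal was -7.02, -6.61 and -7.71 in the pre-heartbeat group and -5.04, -4.58 and -4.92 in the post-heartbeat group, and 0 of the 3 pre-heartbeat arrays were above background. For such probes the fold is given as at least a value. It sets the post-heartbeat mean against, for each pre-heartbeat array, the higher of the probe's own signal and the lowest signal among probes above background. This limit made no difference for Crygd, Sema3c, Gpr84 and Lgals4. Their folds rest on pre-heartbeat signals not above background and are given below as measured. Nor is the value a minimum for the gene, as another probe of Srd5a1 gave 1.01-fold. By its probe, Cav3 was at least 4.34-fold higher in the post-heartbeat group. Ptrf, now named Cavin1, encodes the cavin that works with caveolins, and its signal was -6.10, -6.69 and -5.69 in the pre-heartbeat group and -5.09, -4.80 and -4.59 in the post-heartbeat group, a difference of 1.33.

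Lefty2, a secreted antagonist of Nodal in the left-right axis, was at -0.96, -2.45 and -2.59 in the pre-heartbeat group and 0.56, 0.49 and -0.34 in the post-heartbeat group. The difference of 2.24 or 4.71-fold was 1.48 on the first slide and 2.18 on the second. Asb2, the substrate-binding subunit of a ubiquitin ligase that degrades filamins during muscle differentiation, was at 1.38, 0.35 and 1.12 in the pre-heartbeat group and 2.90, 3.15 and 2.54 in the post-heartbeat group, a difference of 1.91 or 3.76-fold. Hspb1, a small heat shock protein that guards actin filaments, was at -2.13, -2.19 and -2.05 in the pre-heartbeat group and -0.47, -0.08 and -0.53 in the post-heartbeat group, a difference of 1.77 or 3.4-fold. The pre-heartbeat arrays of Hspb1 lay within a span smaller than that of the post-heartbeat arrays. Apobec2, a muscle member of the cytidine deaminase family, was at -1.54, -1.17 and -1.08 in the pre-heartbeat group and 0.25, 0.53 and 0.68 in the post-heartbeat group, a difference of 1.75 or 3.37-fold.

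Other genes with large differences are less often linked with muscle. Pla2g2d, a secreted phospholipase, was at -5.98, -5.51 and -5.90 in the pre-heartbeat group and -4.20, -3.79 and -3.36 in the post-heartbeat group, a difference of 2.01. Shisa3, an antagonist of Wnt and FGF receptors in the endoplasmic reticulum, was at -6.25, -7.82 and -8.22 in the pre-heartbeat group and -5.37, -4.98 and -6.11 in the post-heartbeat group, a difference of 1.94. Cspg4, the membrane proteoglycan NG2, was at -3.89, -4.96 and -3.90 in the pre-heartbeat group and -2.52, -2.14 and -2.39 in the post-heartbeat group, a difference of 1.90. Shisa3 was above background on 1 pre-heartbeat array, and the gap between the lowest post-heartbeat and the highest pre-heartbeat array of Shisa3 was 0.14. Ube2ql1, which encodes a ubiquitin-conjugating enzyme, had 2 probes with differences of 1.77 and 1.28. The first of these probes was at -6.21, -6.41 and -5.82 in the pre-heartbeat group and -3.95, -4.45 and -4.73 in the post-heartbeat group. This first probe was above background on 1 pre-heartbeat array and differed by 0.48 after normexp. The second probe of Ube2ql1 was at -1.58, -2.45 and -1.83 in the pre-heartbeat group and -0.34, -0.61 and -1.07 in the post-heartbeat group. As both probes were selected, the lack of overlap in each was required by the selection.

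**Figure D1:**
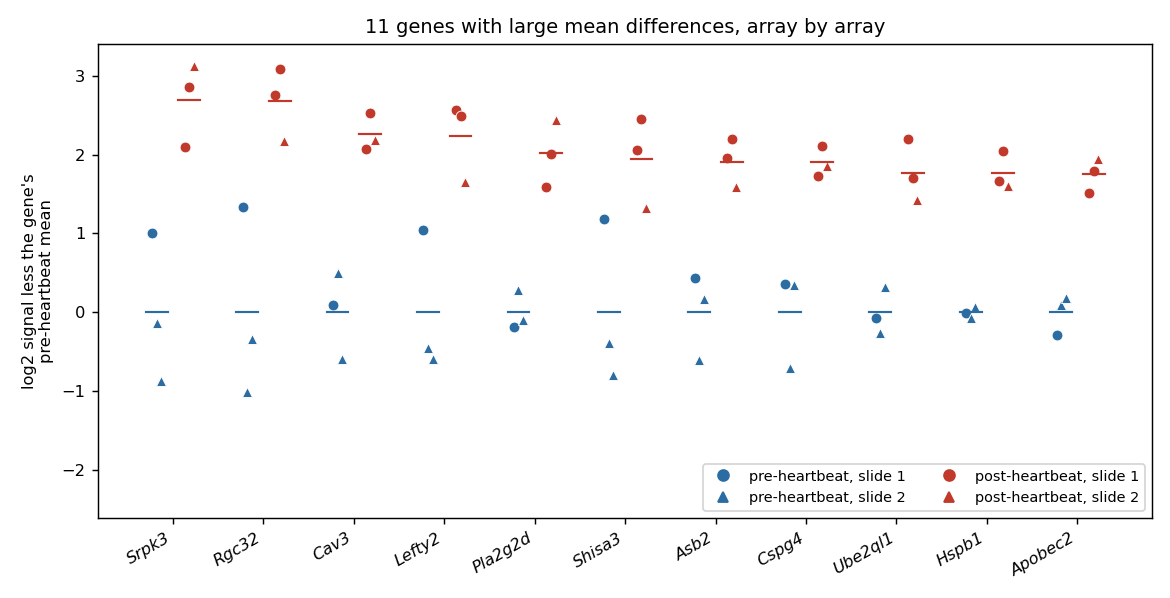
Log2 signal of 11 genes with large differences on each array, less the pre-heartbeat mean of the gene (vertical axis), with pre-heartbeat arrays in blue, post-heartbeat arrays in red, circles for the first slide, triangles for the second slide and short lines for group means (n = 3). The post-heartbeat means lie between 1.75 and 2.69 above the pre-heartbeat means, and the selection itself required every red point to lie above every blue point of its gene.

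Promoter sequences were available from RefSeq (GRCr8 assembly) for 81 of the 102 genes, and the 250 bases before the transcription start were searched for 7 motifs. The stretches below hold a site of the muscle factor MEF2 or of serum response factor, known as the CArG box, or a TATA box near the start. Those of Adamtsl2 and Nepn, which also hold a TATA box near the start, are not printed. Each printed stretch gives the 120 bases before the start, 5′ to 3′, with the motif in capitals.

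Srpk3, chrX:156661850-156661969, plus strand, MEF2 site joined to a TATA box, and a second TATA box: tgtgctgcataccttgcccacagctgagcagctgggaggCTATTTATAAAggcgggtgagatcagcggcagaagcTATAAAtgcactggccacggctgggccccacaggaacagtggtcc
Cav3, chr4:147137873-147137992, plus strand, MEF2 site: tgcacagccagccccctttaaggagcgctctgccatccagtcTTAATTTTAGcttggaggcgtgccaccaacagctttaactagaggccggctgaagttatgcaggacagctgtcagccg
Hspb7, chr5:159010639-159010758, plus strand, MEF2 site and TATA box: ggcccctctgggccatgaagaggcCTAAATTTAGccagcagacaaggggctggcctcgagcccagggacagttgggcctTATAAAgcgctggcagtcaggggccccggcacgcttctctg
Aqp1, chr4:85812664-85812783, plus strand, MEF2 site that contains a TATA box: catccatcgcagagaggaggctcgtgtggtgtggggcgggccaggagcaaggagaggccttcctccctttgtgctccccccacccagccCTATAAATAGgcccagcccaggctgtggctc
Apobec2, chr9:20062441-20062560, plus strand, TATA box: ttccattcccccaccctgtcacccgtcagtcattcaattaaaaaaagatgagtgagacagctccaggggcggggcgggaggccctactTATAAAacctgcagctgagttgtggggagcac
Sema3c, chr4:18699628-18699747, minus strand, CArG box: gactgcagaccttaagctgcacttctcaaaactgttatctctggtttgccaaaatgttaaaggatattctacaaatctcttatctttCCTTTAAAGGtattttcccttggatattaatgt

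A MEF2 site was present before the start of 7 of the 81 genes (8.64%), namely Ampd1, Ankrd34a, Aqp1, Cav3, Hspb7, Pla2g2d and Srpk3, against 1.54% of 9135 promoters of tested genes and 3.07% of all 27457 promoters of the table. TATAAA, searched on the strand of the gene, was present in 9 (11.1%) against 4.75% of tested and 8.38% of all promoters, and it overlapped the MEF2 site in Ampd1, Ankrd34a, Aqp1 and Srpk3. The other five of these 9 were Adamtsl2, Apobec2, Hspb7, Nepn and Scmh1. The CArG box was found in Fbxl22 and Sema3c, which is 2.47% against 1.25% and 1.5%. A match is a description of letters and does not show that a factor bound there.

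The remaining motifs and the MEF2 and CArG sites were searched on both strands. AGATAA, the GATA motif, was present in 6.17% of the 81 promoters, against 5.86% of tested and 10% of all promoters. The E-box CANNTG was present in 65.4% against 56.3% and 65.2%, and AAGTG, the NKX motif, in 33.3% against 37.6% and 40.6%. ACGTG, the core of the hypoxia response element, was present in 16% against 22.4% and 16.9%. The median GC content of these 250 bases was 62% for the selected genes, 60% for tested genes and 52% for all.

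**Figure D2:**
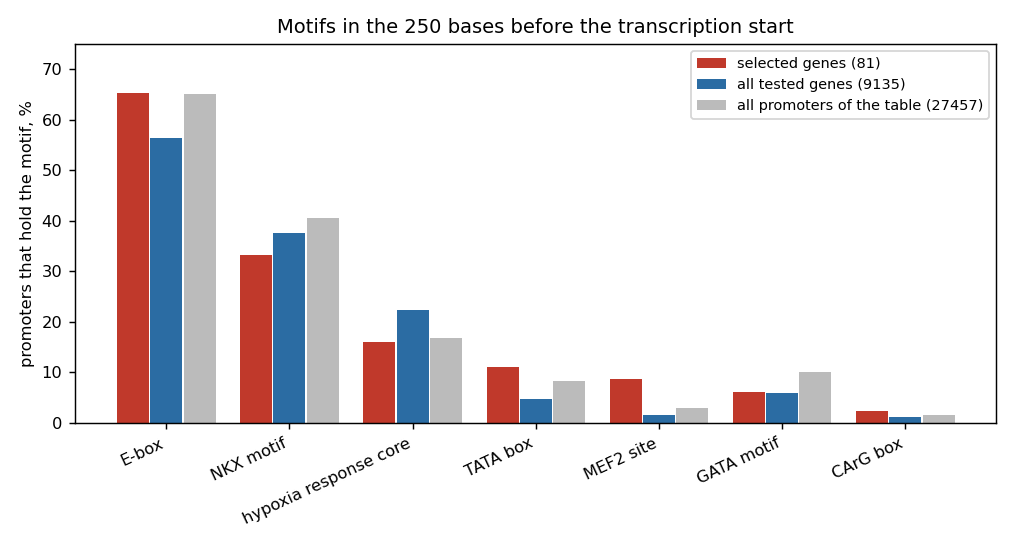
Share of promoters that hold each motif in the 250 bases before the transcription start (vertical axis, %), for 81 of the selected genes (red), 9135 tested genes (blue) and all 27457 promoters of the table (grey). The MEF2 site stands at 8.64% of the selected genes against 1.54% of tested genes, and the hypoxia response core at 16% against 22.4%.

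Of the 102 genes, 31 belonged to at least 1 of 19 lists of heart, muscle and other cell type genes, and 71 belonged to none. Among sarcomere assembly genes, Lmod2, Klhl31 and Pdlim7 were selected. Lmod2, which lengthens thin filaments, was at -2.99, -2.67 and -2.89 in the pre-heartbeat group and -1.76, -1.34 and -1.19 in the post-heartbeat group, a difference of 1.42. Klhl31, a kelch protein of the sarcomere, had 2 probes with differences of 1.39 and 1.17, and the first was at -1.01, -1.31 and -1.07 in the pre-heartbeat group and 0.11, 0.23 and 0.45 in the post-heartbeat group. The gaps between the groups were 0.91 for Lmod2 and 1.11 for the first probe of Klhl31, where the selection required a gap above 0. Pdlim7, a PDZ and LIM domain protein of the Z-disc, was at -1.11, -1.54 and -0.96 in the pre-heartbeat group and 0.03, 0.01 and -0.61 in the post-heartbeat group, a difference of 1.01 that was among the 3 smallest. A second probe of Pdlim7 did not separate the groups, with 2.14, 1.69 and 2.09 before and 2.10, 2.06 and 1.71 after heartbeat initiation.

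Of the 36 other tested genes of the sarcomere list, 34 had a difference above 0, with a median of 0.59, against 46.5% of 11060 tested genes outside the selection and a median of -0.022. When limma was given the slide as a block, 12 of the 36 rose at a Benjamini-Hochberg adjusted p under 0.05, where 1.09% of all tested probes did. Without the block, 0 of the 36 passed in limma, where 0.124% of all tested probes did, and 19 were higher at an unadjusted p under 0.05, where 3.9% of all tested probes were higher and 3.1% lower. The largest of the 12 were Mybphl, a relative of myosin-binding protein H, Palld, an actin-bundling protein, and Tmod1, which caps thin filaments. Their differences with the slide as a block were 1.37, 1.12 and 1.07, with limma adjusted p of 0.0177, 0.0201 and 0.0318. Mybphl differed by 1.31 without overlap when the slide was not a block, and its name begins with the left-out prefix Mybp.

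The muscle chaperone and protein turnover genes selected were Asb2, Hspb1, Hspb7 and Hspb8. Hspb7, a small heat shock protein of cardiac muscle, was at -4.35, -3.90 and -3.69 in the pre-heartbeat group and -2.45, -2.86 and -2.66 in the post-heartbeat group, a difference of 1.32. Hspb8, a small heat shock protein of chaperone-assisted autophagy, was at -3.58, -3.63 and -3.42 in the pre-heartbeat group and -2.39, -2.52 and -2.42 in the post-heartbeat group, a difference of 1.10. Both slides gave nearly the same difference for Hspb8, 1.12 and 1.10. Of the 13 other tested genes of this list, 10 had a difference above 0 with a median of 0.44. Of these 13, Hspb3 and Fbxo32 rose with the slide as a block, by 1.04 and 0.85 (limma adjusted p of 0.0288 and 0.047), and 0 passed without it, with 4 higher at an unadjusted p under 0.05.

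Desmin, costamere and junction genes contributed Des, Sgca, Synm and Itgb1bp2. Des, the intermediate filament of muscle, was at 0.60, -0.04 and 0.46 in the pre-heartbeat group and 1.75, 1.64 and 1.15 in the post-heartbeat group, a difference of 1.17. Synm, a filament protein that binds desmin, was at -5.47, -7.11 and -5.98 in the pre-heartbeat group and -5.10, -5.0 and -4.92 in the post-heartbeat group, a difference of 1.18 that was 0.423 on the first slide, 1.62 on the second and 0.721 without pre-heartbeat replicate 2. Sgca, the alpha subunit of the sarcoglycan complex, was at -5.33, -5.04 and -4.66 in the pre-heartbeat group and -4.06, -3.76 and -3.02 in the post-heartbeat group, a difference of 1.40. The groups of Synm came within 0.37 of each other, and a second probe of Synm, at -6.39, -5.26 and -5.93 before and -7.29, -6.21 and -5.57 after heartbeat initiation, was above background on 1 post-heartbeat array. Itgb1bp2, the integrin-binding chaperone melusin, was at -3.86, -3.26 and -3.45 in the pre-heartbeat group and -2.54, -2.50 and -2.18 in the post-heartbeat group, a difference of 1.12. Of the 26 other tested genes of this list, 19 had a difference above 0 with a median of 0.17. Ctnna3, a catenin of the intercalated disc, rose with the slide as a block by 1.02 (limma adjusted p of 0.0255) and Gja1, which encodes connexin 43, fell by 0.84 (limma adjusted p of 0.0297), where 0.42% of all tested probes fell. Without the block 0 passed, with 4 higher and 1 lower at an unadjusted p under 0.05.

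For calcium cycling outside the left-out names, Jph2 was selected, which ties the cell membrane to the sarcoplasmic reticulum. Jph2 was at -2.89, -3.90 and -3.08 in the pre-heartbeat group and -1.42, -1.86 and -2.36 in the post-heartbeat group, a difference of 1.41. Of the 24 other tested genes of the list, 17 had a difference above 0 with a median of 0.19, and Hrc and Tmem38a, proteins of the sarcoplasmic reticulum, rose with the slide as a block by 0.75 and 1.10 (limma adjusted p of 0.0454 and 0.0311). Without it, 0 of the 24 passed in limma, with 2 higher and 1 lower at an unadjusted p under 0.05. Genes on no list but close to excitation were Rrad, a small GTPase that restrains calcium channels, Adcy5, an adenylyl cyclase of the heart, Clcn2, Sphkap, which anchors protein kinase A, and Corin, the protease that activates atrial natriuretic peptide. Rrad was at -0.94, -1.10 and -0.78 in the pre-heartbeat group and 0.51, 0.78 and 0.49 in the post-heartbeat group, a difference of 1.54, and Adcy5 at -2.67, -3.55 and -2.67 in the pre-heartbeat group and -1.49, -1.56 and -1.63 in the post-heartbeat group, a difference of 1.40. The differences of Sphkap, Clcn2 and Corin were 1.61, 1.19 and 1.14, and a second probe of Clcn2 overlapped between the groups, with -3.97, -4.99 and -4.36 before and -3.73, -3.63 and -4.10 after.

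Enzymes of muscle energy supply were represented by Ak1 and Ampd1. Ak1, adenylate kinase, was at 2.37, 2.22 and 2.57 in the pre-heartbeat group and 3.55, 3.79 and 3.61 in the post-heartbeat group, a difference of 1.26 or 2.40-fold. Ampd1, the muscle AMP deaminase, was at -3.12, -3.30 and -3.03 in the pre-heartbeat group and -1.96, -1.87 and -1.64 in the post-heartbeat group, a difference of 1.33 or 2.51-fold. Adssl1, now named Adss1, the muscle adenylosuccinate synthase that acts after AMP deaminase in the purine nucleotide cycle, was on no list and was at -5.44, -5.55 and -4.96 in the pre-heartbeat group and -3.71, -3.96 and -4.13 in the post-heartbeat group, a difference of 1.38. Of the 39 other tested genes of the energy list, 29 had a difference above 0 with a median of 0.20. Ckm, Ppp1r3c and Art3 rose with the slide as a block by 1.22, 0.94 and 1.0 (limma adjusted p of 0.0448, 0.0275 and 0.0245), and without it 0 of the 39 passed in limma, with 16 higher and 1 lower at an unadjusted p under 0.05. G0s2, an inhibitor of triglyceride lipase, was at 1.38, 1.44 and 1.75 in the pre-heartbeat group and 2.61, 3.07 and 3.13 in the post-heartbeat group, a difference of 1.42, and Ppargc1b, a coactivator of mitochondrial genes, differed by 1.14.

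Among heart transcription factors, Irx4 and Irx2 were selected. Irx4, a homeobox factor of the ventricle, was at 0.46, -0.20 and 0.43 in the pre-heartbeat group and 1.62, 1.67 and 1.29 in the post-heartbeat group, a difference of 1.29. Irx2 was at -1.13, -2.91 and -1.79 in the pre-heartbeat group and -0.36, -0.54 and -0.97 in the post-heartbeat group, a difference of 1.32 that was 0.685 on the first slide, 1.38 on the second and 0.84 without pre-heartbeat replicate 2. A second probe of Irx2 did not separate the groups, with -5.23, -5.15 and -4.83 before and -5.08, -5.12 and -5.13 after heartbeat initiation. Of the 38 other tested genes of this list, 28 had a difference above 0 with a median of 0.24, and 0 passed in limma with or without the block, with 6 higher at an unadjusted p under 0.05. Tbx18, a T-box factor of somites and of the pericardial and proepicardial mesoderm, was at -5.49, -7.18 and -5.60 in the pre-heartbeat group and -4.53, -4.49 and -4.44 in the post-heartbeat group, a difference of 1.61. Pre-heartbeat replicate 2 stood apart from the other two pre-heartbeat arrays of Tbx18, and without it the difference was 1.06. A second probe of Tbx18 was above background on 0 arrays.

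Of the enzymes of catecholamine synthesis, Dbh and Pnmt were selected, which make noradrenaline and adrenaline. Dbh was at -2.19, -1.68 and -1.76 in the pre-heartbeat group and -0.51, -0.40 and -0.34 in the post-heartbeat group, a difference of 1.46 or 2.75-fold. Pnmt was at 1.86, 2.18 and 2.26 in the pre-heartbeat group and 3.06, 3.25 and 3.1 in the post-heartbeat group, a difference of 1.04 or 2.06-fold. The earlier enzymes of the pathway on the same list, named after their values were seen, did not pass. Th, tyrosine hydroxylase, differed by 0.24, Ddc, the decarboxylase, by 0.030 and Gch1, which makes the cofactor of Th, by -0.13 (limma adjusted p of 0.868, 0.965 and 0.899). Sema3c, a semaphorin of the outflow tract, was at -6.05, -6.29 and -6.24 in the pre-heartbeat group and -5.18, -5.61 and -4.28 in the post-heartbeat group, with 0 pre-heartbeat arrays above background. By these signals Sema3c was 2.25-fold higher. A second probe of Sema3c, at -6.45, -5.32 and -6.51 before and -5.50, -5.68 and -5.22 after heartbeat initiation, overlapped. Of the 55 other tested genes of the list of signals, 34 had a difference above 0 with a median of 0.13. With the slide as a block 0 of these rose and the antagonists Grem1 and Dkk1 fell, by 1.89 and 0.95 (limma adjusted p of 0.0325 and 0.0359), and without it 0 passed, with 3 higher and 5 lower at an unadjusted p under 0.05.

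Wnt11, a non-canonical Wnt ligand of the second heart field and outflow tract, had 2 probes that differed by 1.2 and 1.17. The first was at -3.01, -3.37 and -2.74 in the pre-heartbeat group and -1.59, -2.02 and -1.92 in the post-heartbeat group. Of the 16 other tested second heart field genes, 10 had a difference above 0 with a median of 0.074, and 0 passed in limma with or without the block, with 1 higher and 1 lower at an unadjusted p under 0.05. Dkk3, a secreted protein of the Dickkopf family, differed by 1.58, with -2.58, -2.96 and -3.20 in the pre-heartbeat group and -1.60, -1.29 and -1.11 in the post-heartbeat group. Of Notch ligands, Jag2 differed by 1.26, or 0.686 without pre-heartbeat replicate 2, and Dll3, a ligand of the presomitic mesoderm that inhibits Notch, by 1.13. Dll3 was at -2.24, -2.19 and -1.75 in the pre-heartbeat group and -1.17, -0.80 and -0.81 in the post-heartbeat group, and its second probe separated the groups too, with -2.98, -2.72 and -2.62 before and -1.94, -1.78 and -1.90 after. The second probe of Jag2 overlapped, with -2.35, -3.44 and -2.50 before and -1.74, -2.12 and -2.53 after.

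Of matrix genes, Col2a1 and Col4a1 were selected. Col2a1, a fibrillar collagen of cartilage that embryonic hearts also express, was at 1.32, -0.02 and 1.05 in the pre-heartbeat group and 2.6, 2.23 and 1.81 in the post-heartbeat group, a difference of 1.43. Col4a1, a chain of basement membrane collagen, was at -2.99, -4.41 and -3.13 in the pre-heartbeat group and -1.75, -2.25 and -2.82 in the post-heartbeat group, a difference of 1.24. For both, pre-heartbeat replicate 2 was the lowest array by more than 1 on the log2 scale, and without it Col4a1 differed by 0.787. A second, brighter probe of Col4a1 overlapped between the groups, with 1.36, -0.14 and 0.81 before and 1.27, 1.15 and 0.66 after. Of the 39 other tested genes of the list, 27 had a difference above 0 with a median of 0.14. Timp3 and Ltbp1 rose with the slide as a block by 0.88 and 0.87 (limma adjusted p of 0.0437 and 0.0448), and without it 0 passed, with 5 higher and 1 lower at an unadjusted p under 0.05. Thbs4, a matricellular thrombospondin, was on no list and was at 2.53, 2.76 and 3.02 in the pre-heartbeat group and 3.78, 3.79 and 4.04 in the post-heartbeat group, a difference of 1.09.

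Stc2, a secreted glycoprotein, was the selected gene among HIF-1 targets outside glycolysis. It was at -5.77, -5.67 and -5.49 in the pre-heartbeat group and -4.74, -4.61 and -4.16 in the post-heartbeat group, a difference of 1.14. Of the 26 other tested HIF-1 targets of the list, 20 had a difference above 0 with a median of 0.17. With the slide as a block 0 rose and Pgf, placental growth factor, fell by 0.91 (limma adjusted p of 0.026), and without it 0 passed, with 6 higher and 1 lower at an unadjusted p under 0.05. P4htm, a transmembrane prolyl hydroxylase that can act on HIF alpha subunits, was on no list and differed by 1.03, with -3.73, -3.46 and -3.37 in the pre-heartbeat group and -2.48, -2.43 and -2.55 in the post-heartbeat group. The gaps between the groups were 0.75 for Stc2 and 0.82 for P4htm, where the selection required a gap above 0.

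Smooth muscle genes, which embryonic cardiac muscle also expresses, were represented by Cnn1, Tagln, Smtnl2 and Des. Cnn1, calponin, was at -1.36, -1.06 and -1.14 in the pre-heartbeat group and -0.03, 0.07 and -0.24 in the post-heartbeat group, a difference of 1.12. Tagln, transgelin, was at -0.36, 0.28 and -0.03 in the pre-heartbeat group and 1.08, 0.97 and 0.97 in the post-heartbeat group, a difference of 1.04. Both were higher on the first slide, where Cnn1 differed by 1.38 and Tagln by 1.38, than on the second, where they differed by 0.862 and 0.844. Smtnl2, a smoothelin-like protein, was at -4.93, -4.97 and -3.89 in the pre-heartbeat group and -3.43, -3.47 and -3.55 in the post-heartbeat group, a difference of 1.11, and its second probe differed by 0.71 without overlap. Of the 9 other tested genes of the list, 6 had a difference above 0 with a median of 0.21, and 0 passed in limma with or without the block, with 2 higher at an unadjusted p under 0.05.

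**Figure D3:**
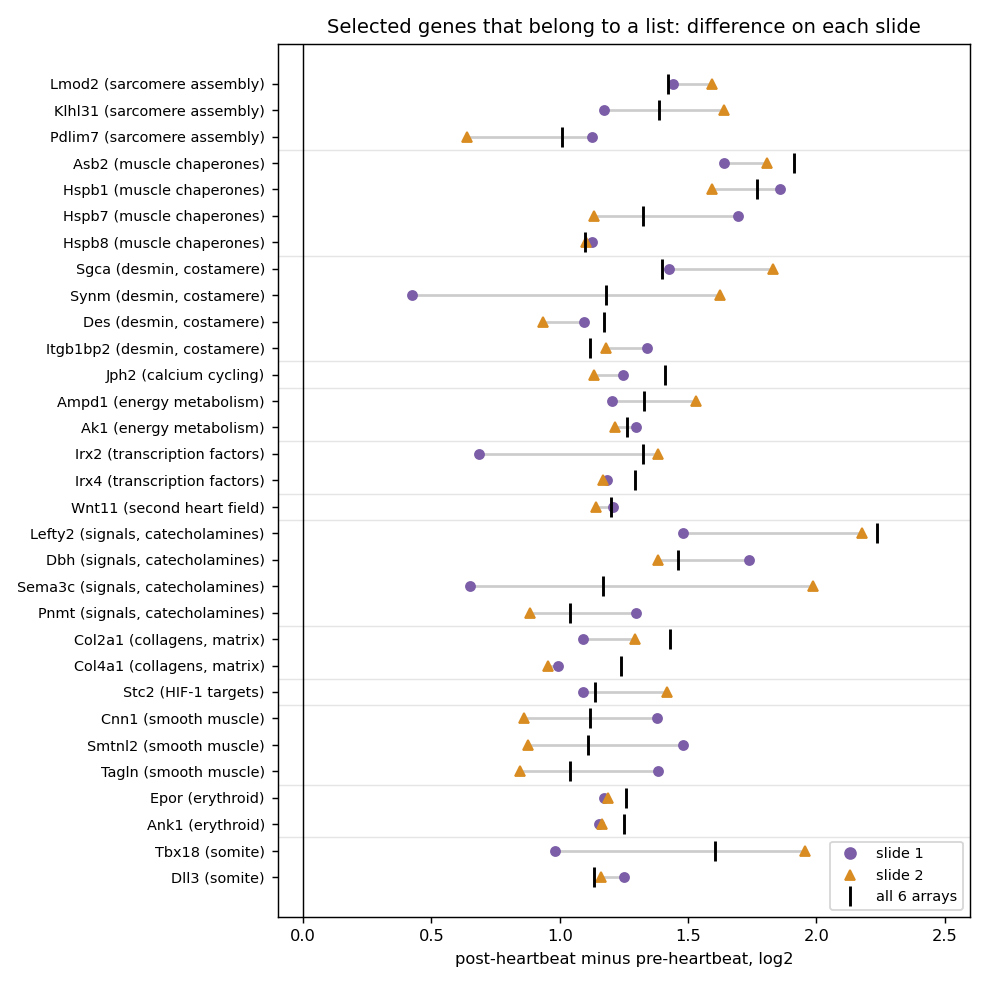
Post-heartbeat minus pre-heartbeat difference (horizontal axis, log2) of the 31 selected genes that belong to a list, each placed under the first list that holds it, on the first slide (circles), on the second slide (triangles) and over all 6 arrays (black ticks). The slides lie far apart for Synm (0.42 and 1.62), Sema3c (0.65 and 1.99) and Tbx18 (0.98 and 1.95).

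Markers of other cell types were measured on the same arrays. Epor, the erythropoietin receptor, and Ank1, the ankyrin of the red cell membrane, belonged to the blood and erythroid list. Epor was at -3.79, -4.40 and -3.66 in the pre-heartbeat group and -2.67, -2.56 and -2.84 in the post-heartbeat group, a difference of 1.26, and Ank1 at -4.62, -5.16 and -4.65 in the pre-heartbeat group and -3.36, -3.57 and -3.74 in the post-heartbeat group, a difference of 1.25. Of the 13 other tested genes of this list, 6 had a difference above 0 with a median of -0.055, and the mean level of the list ranged from -2.91 to -2.87 before and from -2.81 to -2.66 after heartbeat initiation. In limma 0 of the 13 passed with or without the block, with 2 higher and 1 lower at an unadjusted p under 0.05.

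The endothelial list held 0 of the selected genes, 8 of its 25 tested genes had a difference above 0, and its mean level ranged from -1.31 to -1.27 before and from -1.46 to -1.30 after heartbeat initiation. The neural ectoderm list also held 0, and its mean level ranged from -2.38 to -1.93 before and from -2.96 to -2.52 after, without overlap. Of its 19 tested genes, 6 had a difference above 0, and Otx2 and Mab21l1, regulators of the anterior neural plate and eye, fell (limma adjusted p of 0.0201 for each). Otx2 fell by 1.56, and Mab21l1, at -5.57, -5.21 and -5.18 before heartbeat initiation, was not well above background on any post-heartbeat array. The yolk sac and definitive endoderm list held 0, 7 of its 25 tested genes had a difference above 0, its mean level ranged from -0.27 to 0.29 before and from -0.55 to -0.0085 after, and Dpp4 fell by 1.21 (limma adjusted p of 0.0452). Among all tested probes 0.0207% fell. With the slide as a block, where 0.42% of all tested probes fell, 5 of the neural genes, Lmx1a, Mab21l1, Hesx1, Otx2 and Snai2, 2 of the endoderm genes, Dpp4 and Ihh, and the endothelial gene Cldn5 fell. Without the block, the limma adjusted p was 0.115 for Lmx1a, 0.0837 for Hesx1, 0.117 for Snai2, 0.731 for Ihh and 0.864 for Cldn5. The part of such neighboring tissue in the differences of the selected genes was not tested.

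Apart from Dll3 and Tbx18, 9 of the 16 other tested paraxial mesoderm genes had a difference above 0, with a median of 0.14, and the mean level of the list ranged from -2.45 to -1.52 before and from -2.29 to -1.55 after heartbeat initiation. Of the 13 other tested pericardial, proepicardial and mesenchymal genes, 7 were above 0 with a median of 0.042, and the list ranged from -3.04 to -2.37 before and from -3.03 to -2.54 after. The immediate early list held 0 of the selected genes, and 20 of its 24 tested genes were above 0 with a median of 0.30. The list of DNA replication and mitosis genes held 0, and 10 of its 35 tested genes were above 0 with a median of -0.074. Without the block 0 genes of these lists passed in limma. At an unadjusted p under 0.05 these were 0 higher and 3 lower for paraxial mesoderm, 1 and 2 for the pericardial list, 3 and 1 for immediate early genes and 1 and 0 for replication. With the slide as a block, Cyp26a1 and Snai2 fell by 0.82 and 1.21 and Scx rose by 0.74 (limma adjusted p of 0.0316, 0.0227 and 0.0492).

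The selected probes of Icam5, Crygd, Cdh23, Gpr84, Lgals4 and Srd5a1, like those of Cav3 and Sema3c, were above background on 0 pre-heartbeat arrays, which makes 8 such probes. Icam5, an adhesion molecule of neurons, was at -7.03, -7.68 and -7.89 in the pre-heartbeat group and -5.61, -5.82 and -6.16 in the post-heartbeat group and was at least 2.23-fold higher. Crygd, a lens crystallin, was at -6.30, -6.14 and -6.16 in the pre-heartbeat group and -4.52, -4.35 and -5.18 in the post-heartbeat group and was 2.86-fold higher by these signals. Cdh23, a cadherin of hair cells, was at -6.33, -7.30 and -7.01 in the pre-heartbeat group and -5.58, -4.96 and -5.60 in the post-heartbeat group and was at least 2.50-fold higher. The post-heartbeat signals of these genes were also low on the scale of the array. Gpr84, a receptor for medium-chain fatty acids, was at -6.88, -6.48 and -6.63 in the pre-heartbeat group and -5.11, -5.69 and -5.81 in the post-heartbeat group and was 2.19-fold higher by these signals. Lgals4, a galectin of the gut epithelium, was at -6.59, -5.86 and -6.72 in the pre-heartbeat group and -5.52, -5.23 and -5.05 in the post-heartbeat group and was 2.18-fold higher by this probe. Its second probe, above background on all 6 arrays, was at -5.88, -5.22 and -5.73 before and -5.13, -4.99 and -4.64 after heartbeat initiation, a difference of 0.69 or 1.61-fold that lies below that of the first. Srd5a1, a steroid reductase, was at -6.40, -7.28 and -6.18 in the pre-heartbeat group and -5.56, -5.54 and -5.52 in the post-heartbeat group and was at least 1.88-fold higher by this probe. Its second probe, which was above background on all arrays, gave -3.65, -3.76 and -3.77 before and -3.66, -3.63 and -3.85 after heartbeat initiation, or 1.01-fold.

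The other genes on no list are given by their differences. Genes of muscle or of its turnover were Pde4dip, the scaffold myomegalin (1.72), Fbxl22, an F-box protein of the sarcomere (1.17), Lrrc39, a protein of the M-band (1.08 and 1.05 for its 2 probes), Txlnb, the taxilin of muscle (1.03), Klhl30, a kelch protein (1.37), and Sh3bgr (1.07). Fbxl22 was at 2.50, 2.87 and 2.88 in the pre-heartbeat group and 3.73, 4.0 and 4.04 in the post-heartbeat group. Colq, the collagen-like tail of acetylcholinesterase, differed by 1.68, and its second probe by 0.52 with overlap. Grb14, an adaptor that dampens insulin receptor signaling, differed by 1.61 and 1.45, and its first probe was at -1.41, -2.0 and -2.12 in the pre-heartbeat group and -0.35, 0.11 and -0.44 in the post-heartbeat group.

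Genes of membrane trafficking and the cytoskeleton were Fam134b, now Retreg1, a receptor for autophagy of the endoplasmic reticulum (1.56 and 1.27), Sorcs3, a sorting receptor (1.40), Ehbp1l1 (1.34), Dfnb31, now Whrn, a scaffold of stereocilia (1.42), and the small GTPases Rac2 (1.24) and Rhob (1.01). Sorcs3 and Dfnb31 were each above background on 1 pre-heartbeat array. They differed by 0.60 and 0.65 on the first slide and by 2.04 and 1.61 on the second. Aqp1, a water channel, was at -4.11, -3.87 and -3.98 in the pre-heartbeat group and -2.85, -2.68 and -2.64 in the post-heartbeat group, a difference of 1.26. The gap between the groups of Aqp1 was 1.02, where the selection required a gap above 0. Receptors, adhesion molecules and signaling proteins were Gpr56, now Adgrg1, an adhesion receptor (1.67 and 1.07), Lrrc4b, an adhesion protein of synapses (1.54), Ctnnd2, a catenin (1.25), Perp, a desmosome protein (1.19), Cbln2, a secreted synapse organizer (1.06), Plcl1 (1.14), Dusp2, a phosphatase of MAP kinases (1.07), Sh2d4a (1.22), Mrap, an accessory protein of the ACTH receptor (1.05), and Olr1091, an olfactory receptor (1.52).

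Secreted and matrix proteins included Adamtsl2 (1.54), Loxl3, a lysyl oxidase (1.08), Nepn, nephrocan (1.04), Spink8, a protease inhibitor (1.04), Cpa1, a carboxypeptidase (1.01), and Gpx3, the glutathione peroxidase of plasma (1.07). Enzymes were Tgm1, a transglutaminase (1.64), and Prmt8, an arginine methyltransferase (1.52). Tgm1 was at -3.76, -3.75 and -3.30 in the pre-heartbeat group and -2.14, -1.83 and -1.92 in the post-heartbeat group. Scmh1, a Polycomb protein (1.03), and Samd4a, an RNA-binding repressor of translation (1.27), act on chromatin and RNA. The rest were Ankrd34a (1.28), Klhdc8b (1.16), Upk3a, a uroplakin (1.15), Tmem51 (1.14), Fam189a2, now Entrep1 (1.12), and the gene listed by the clone name MGC114529 (1.04).

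A second reading was available for 20 of the 102 genes, each with 1 other probe outside the selection. Of these 20 probes, 15 were above background on all 3 post-heartbeat arrays, and their differences ranged from -0.04 to 0.90 with a median of 0.62. The difference was above 0 for 13 of the 15, and the groups did not overlap for 4, those of Dll3, Klhl30, Smtnl2 and Lgals4. The others overlapped, among them the second probes of Pdlim7, Srd5a1 and Irx2, whose differences were -0.014, 0.014 and -0.04. Those of Ctnnd2 and Rhob, above background on all arrays, overlapped too and differed by 0.19 and 0.41. Where 2 probes of a gene were both selected, which was so for 8 genes, their differences lay between 0.03 (Wnt11 and Lrrc39) and 0.63 (Rgc32) of each other.

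At the limits of the selection, Cpa1, Pdlim7 and Rhob were just inside, with differences of 1.01. Cpa1 was at -6.39, -5.43 and -5.79 in the pre-heartbeat group and -5.21, -4.58 and -4.79 in the post-heartbeat group, and Rhob at -4.18, -5.05 and -4.26 in the pre-heartbeat group and -3.41, -3.52 and -3.54 in the post-heartbeat group. Just outside, Gys1, Pla2g7 and Lrrc10 had no overlap and differences of 0.998, 0.998 and 0.997. Gys1 was at -4.63, -4.63 and -4.68 before and -3.44, -3.74 and -3.77 after, Pla2g7 at -5.10, -5.93 and -5.81 before and -4.43, -4.71 and -4.69 after, and Lrrc10 at 0.02, 0.55 and 0.45 before and 1.29, 1.33 and 1.40 after. Another probe of Gys1, which represented it in the energy list, differed by 0.50. The smallest gaps between groups inside the selection were those of Dusp2 (0.058), Olr1091 (0.13) and Shisa3 (0.14). Dusp2 was at -3.32, -4.18 and -3.81 in the pre-heartbeat group and -2.28, -2.55 and -3.26 in the post-heartbeat group, and Olr1091 at -5.75, -6.03 and -7.22 in the pre-heartbeat group and -4.37, -4.46 and -5.62 in the post-heartbeat group, of which 1 pre-heartbeat array was above background. Outside, 24 probes had a difference of 1 or more but overlapped, and the nearest were Cd200, Lppr5 and Zdhhc22, with gaps of -0.029, -0.06 and -0.077, where a gap below 0 is an overlap. Cd200 was at -7.38, -6.16 and -7.92 before and -6.02, -6.04 and -6.19 after. Lppr5 was at -5.43, -7.13 and -6.26 before and -5.12, -4.89 and -5.49 after, and Zdhhc22 at -5.90, -7.35 and -7.48 before and -5.66, -5.18 and -5.98 after.

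The pre-heartbeat array with the lowest signal was not the same for all selected probes. Pre-heartbeat replicate 2, which had the lowest 75th percentile of the 6 arrays, was the lowest array for 65 of the 110 probes (59.1%), where it was the lowest of the 3 pre-heartbeat arrays for 28.0% of all tested probes. Replicate 1 was the lowest for 32 (29.1%, against 50.4% of all tested probes) and replicate 3 for 13 (11.8%, against 21.5%). Without replicate 2, the difference was still 1 or more for 88 of the 110 probes, with a median of 1.13. It fell by a factor of more than 1.5 for Tbx18, Irx2, Jag2, Col4a1 and Synm, as given above, and for Dfnb31 (to 0.857), Samd4a (0.824) and Clcn2 (0.785). Without replicate 1, it did so for the second probe of Fam134b (to 0.78), and leaving out any other array moved no difference by so much. The highest of the post-heartbeat arrays was replicate 1 for 41 probes, replicate 2 for 32 and replicate 3 for 37. The SD among the pre-heartbeat arrays had a median of 0.36 and exceeded that among the post-heartbeat arrays, 0.22, for 80 of the 110 probes. Over all tested probes these medians were 0.25 and 0.19.

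Within the slides, the median difference of the 110 probes was 1.23 on the first, with a range from 0.42 to 2.21, and 1.29 on the second, with a range from 0.64 to 3.63, where the medians over all tested probes were 0.046 and -0.051. All 110 probes were thus higher after heartbeat initiation on both slides, a direction that the selection fixes, and 73 differed by 1 or more on both. With the slide as a block, the difference was 1 or more for 102 probes, with a median of 1.23. Of the 110 probes, 12 passed an adjusted p under 0.05 in limma, where 24 of 19299 tested probes (0.124%) were called higher, and 77 passed with the slide as a block, where 211 (1.09%) were. As the selection used the same contrast, nothing is read from these counts, and with any array left out limma called 0 or 1 of all tested probes higher.

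**Figure D4:**
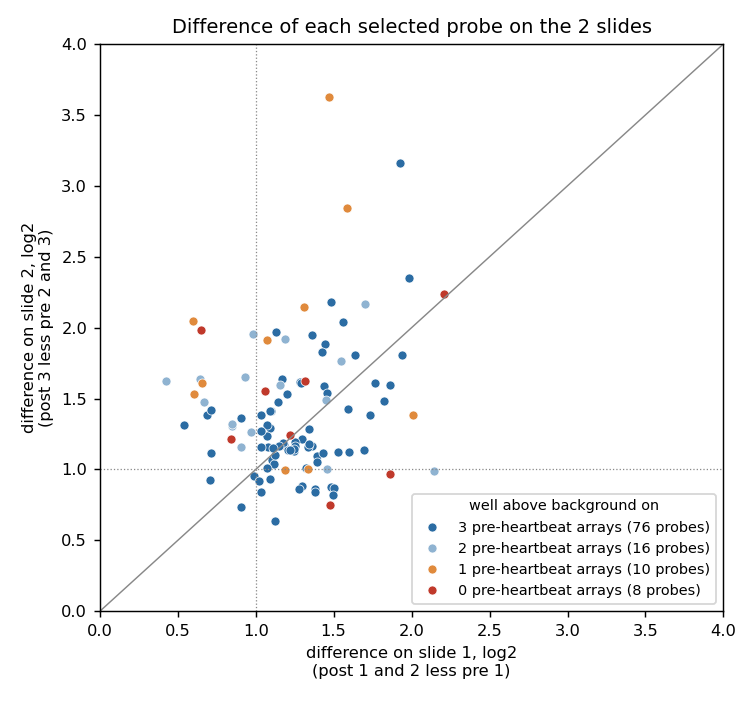
Difference of each of the 110 selected probes on the first slide (horizontal axis, log2) and on the second slide (vertical axis, log2), colored by the number of pre-heartbeat arrays on which the probe was well above background, with the line of equal differences in grey and dotted lines at 1. The probes lie between 0.42 and 2.21 on the first slide and between 0.64 and 3.63 on the second.

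The selected probes differed in whether they were detected before the heartbeat. Of the 110 probes, 76 were above background on all 3 pre-heartbeat arrays, 16 on 2, 10 on 1 and 8 on 0. In the 39 probes of the left-out name families these numbers were 33, 2, 2 and 2, and their median difference was 1.39, with 3.46 as the largest. After another background correction (normexp with an offset of 50, which adds a constant to every signal), the median of the 110 probes was 0.79, and 33 had a difference of 1 or more. For the 76 probes above background on all pre-heartbeat arrays the median went from 1.24 to 0.96, and for the other 34 it went from 1.46 to 0.39. Among these 34 were the selected probes of Ptrf, Tbx18 and Clcn2, with differences of 0.35, 0.44 and 0.20 after normexp. So were those of Prmt8 (0.53), Upk3a (0.31), Klhdc8b (0.27) and MGC114529 (0.27). The added constant shrinks differences of low signals by itself. Lefty2 kept a difference of 1.99 under this correction, Asb2 1.88, Apobec2 1.64 and Hspb1 1.59, and Srpk3, Rgc32 and Cav3 had 1.05, 0.75 and 0.49.

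**Figure D5:**
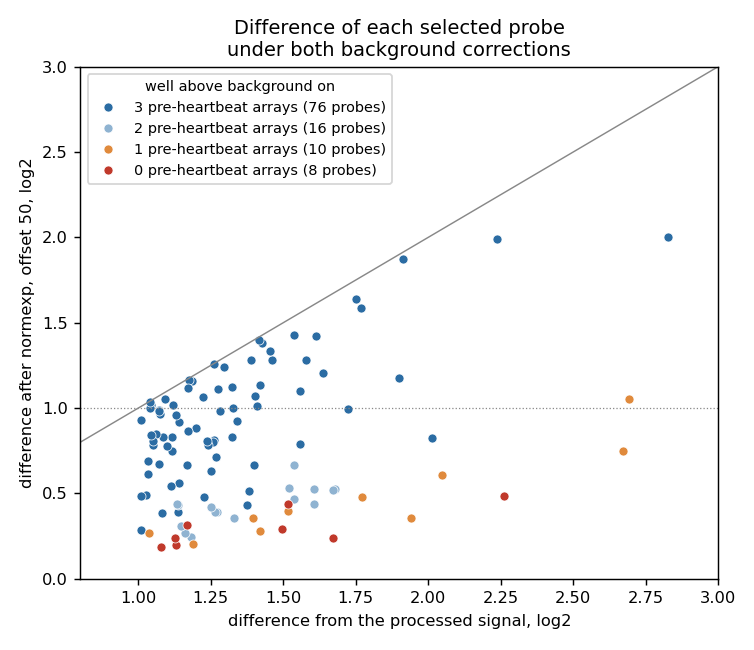
Difference of each selected probe from the processed signal (horizontal axis, log2) and after normexp background correction with an offset of 50 (vertical axis, log2), colored by the number of pre-heartbeat arrays on which the probe was well above background, with the line of equal differences in grey and a dotted line at 1. Probes above background on all 3 pre-heartbeat arrays lie nearer to the line, with medians of 1.24 and 0.96, than the others, with medians of 1.46 and 0.39.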

How the data were processed

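RNA of the heart primordium was labeled with cyanine 3 and hybridized to Agilent rat arrays, which were read with Feature Extraction 10.7.3.1. For each spot the authors deposited a background-subtracted intensity, the processed signal, with flags that mark spots above background and outliers. They also deposited ratios, shifted to the 75th percentile and divided by a baseline per probe, which served as an alternative. Of 58717 spots other than controls, those flagged as outliers, 324 to 545 an array, were left out first. Then log2 of the processed signal less the 75th percentile of the remaining spots of each array was used. Spots of a probe were averaged, and a probe counted as above background if at least 0.5 of its spots did.

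Probes that were above background on all 3 arrays of either group were tested in limma 3.58.1 (R 4.3.3) with Benjamini-Hochberg adjustment at 0.05. Files were read and figures drawn with Python 3.11.15, numpy 2.4.6, pandas 2.3.3 and matplotlib 3.10.9. Precision is limited by the number of arrays, and p measures only the spread between these samples. In the lists, a gene was represented by its brightest tested probe. Of the 102 genes, 101 were matched to RefSeq, 87 by transcript. No rn4 annotation or protein sequence was used here.

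The genes and the lists were chosen with earlier results of these data known. Selected genes are named except for a few that are not reported here. Given in full are genes among the 12 largest differences, genes on a list, those nearest the limits and those above background on 0 pre-heartbeat arrays, and other list genes only where they passed limma with or without the slide as a block, at most 3 a list except where a count of 5 or fewer is named whole. Th, Ddc and Gch1 are exceptions, which did not pass and were named beside Dbh and Pnmt after their values were seen. Alternatives were normexp with an offset of 50, quantile normalization, other percentiles and filters, the authors' ratios, outlier spots kept, a 1.5-fold minimum, the methods' test, the slide or the replicate number as a block, and each array left out.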

Additional observations from a re-analysis of the deposited data

How the results depend on the processing

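The number of genes that met the selection was 102 and lay between 96 and 115 with quantile normalization, another percentile, the authors' ratios, outlier spots kept, every spot above background required, or the slide as a block. It was 32 with normexp, all among the 102, and 294 with a minimum of 1.5-fold. When arrays were left out it ranged from 103 to 201. It was 199 without pre-heartbeat replicate 1 and 201 without post-heartbeat replicate 3, of which 87 and 93 were among the 102, and 81 of the 102 met it without pre-heartbeat replicate 2, an alternative chosen after seeing the data. With normexp, 72 of the 110 differences moved by more than the spread between replicates.

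Limma called 24 probes higher and 4 lower. It called 43 and 6 with normexp, 11 and 3 with quantile normalization, 10 and 3 with the authors' ratios, 211 and 81 with the slide as a block, and 1 and 0 without a filter on dim probes. When arrays were left out singly, the counts ranged from 0 to 1 in either direction, with 799 to 2555 probes at an unadjusted p under 0.05, against 1350 with all arrays. The selection of the methods (1.5-fold, unadjusted) gave 366 higher and 223 lower, and the methods' test after Benjamini-Hochberg adjustment gave 0 and 0, with 1326 at an unadjusted p under 0.05.

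With the replicate number as a block, limma called 110 higher and 56 lower, and the number of selected genes stayed at 102. Deviations from the group means correlated at 0.65, -0.28 and 0.49 over probes for replicates 1, 2 and 3. Replicates 1 and 3 shared a slide between the groups and replicate 2 did not. These correlations thus cannot show whether the numbers paired the samples. Arrays of the same slide correlated between 0.49 and 0.65 and those of different slides between -0.73 and -0.28. Signals near background limit the low members. Their differences were smaller with normexp, but the constant it adds shrinks differences of low signals by itself. The shift therefore does not measure the background correction alone.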
